A study of Mus musculus with 7 samples.

Results

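The erythropoietin pathway was followed through 10 genes of the 39017 listed in the count files: the ligand Epo, the receptor Epor, the kinase Jak2, the transcription factors Stat5a and Stat5b, the feedback inhibitors Cish, Socs2 and Socs3, the kinase Pim1 and the hormone Erfe. They were chosen by role and matched from Ensembl identifiers to symbols, and all 10 were found and passed the filter on low counts. The data are RNA-seq counts from 7 mouse fetal livers at E12.5, strain C57BL/6, made from single-cell suspensions of the liver, with 1 liver number per library in the sample titles. The study removed Taf10, which encodes a subunit of the general transcription factor TFIID and of the SAGA coactivator, in erythroid cells.

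The 2 TAF10KO livers are labelled lox/lox with EpoCre in their titles, while the series text describes a lox allele over a KO allele with EpoR-Cre. All 3 TAF10HET livers carry EpoCre. The library labelled TAF10HET replicate 1 has the alleles lox and wt, and replicates 2 and 3 have wt and ko. Both WT livers are lox/lox without Cre, so they carry lox-flanked Taf10 alleles as the TAF10KO livers do. The Cre is expressed from the Epor locus and interrupts that copy, so by their labels TAF10KO and TAF10HET livers have 1 intact Epor copy and WT livers an intact pair. In the library labelled TAF10HET replicate 1, the levels of Taf10 and Epor were near those of a WT liver and do not bear out its label, as given with them. In comparisons with WT, the effects of the Cre allele and of Taf10 cannot be told apart. Each title also holds a date code. The first code covers replicate 1 of each group, and the second covers TAF10KO replicate 2, TAF10HET replicates 2 and 3 and WT replicate 2. In TAF10HET the type of Taf10 allele follows the date code, and these cannot be told apart either. Nothing in the labels says that the livers of a group came from separate litters, so p-values measure only the spread between these livers.

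Erythropoietin is made in the fetal liver itself at this stage, by hepatocyte-lineage cells, and acts on erythroid progenitors and early erythroblasts, which make up much of the organ. Binding of the hormone to its receptor activates JAK2, which phosphorylates STAT5A and STAT5B. These enter the nucleus and raise transcription of survival genes, of the feedback inhibitors CISH, SOCS2 and SOCS3, and of erythroferrone, the hormone encoded by Erfe that represses hepcidin and so frees iron for haemoglobin synthesis.

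The promoters of Epor and Erfe are shown because Epor is the gene the Cre allele interrupts and Erfe is the member that passed the test between genotypes. Each sequence holds the 250 bases before the transcription start in RefSeq, 5′ to 3′ on the strand of the gene, build GRCm38.p6. The Epor window lies on the minus strand at chr9:21963577-21963826 and the Erfe window on the plus strand at chr1:91366180-91366429. Neither overlaps an annotated exon. Capitals mark a match to AGATAA, a form of the motif bound by GATA factors, here read on the opposite strand as TTATCT.
Epor: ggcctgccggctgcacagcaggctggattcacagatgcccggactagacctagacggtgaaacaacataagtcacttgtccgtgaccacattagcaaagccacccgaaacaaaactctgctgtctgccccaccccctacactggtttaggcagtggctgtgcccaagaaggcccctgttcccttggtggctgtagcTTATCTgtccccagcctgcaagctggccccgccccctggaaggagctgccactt
Erfe: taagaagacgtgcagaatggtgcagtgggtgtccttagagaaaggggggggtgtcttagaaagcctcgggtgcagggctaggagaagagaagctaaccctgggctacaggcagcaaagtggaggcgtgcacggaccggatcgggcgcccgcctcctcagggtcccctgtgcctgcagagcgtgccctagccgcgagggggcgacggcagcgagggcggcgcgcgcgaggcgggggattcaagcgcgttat
Windows were found for 9 of the 10 members, all except Socs2. Both strands were searched for AGATAA, for TGATAA and for TTCNNNGAA, the motif bound by STAT5. The Epor window held AGATAA at 54 to 49 bases before the start, the Epo window TGATAA at 191 to 186 bases, and the Socs3 window TTCNNNGAA at 154 to 146 bases. The other members had no match in these windows. Of 32851 windows of the same length, 9.99% held AGATAA, 7.94% TGATAA and 7.02% TTCNNNGAA. A match is a description of the letters and was not tied to any value.

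Across the series, counts in genes ranged from 18008391 to 43401474 per library. The first principal component, with 63.2% of the variance, separated the date codes, and the biological coefficient of variation was 13.4% with the date code in the fit against 33.9% without it. The date code is therefore a term in every test here unless stated. "Rose" and "fell" are used for an adjusted p under 0.05 in edgeR's quasi-likelihood test with Benjamini-Hochberg adjustment over 15800 genes. Levels are CPM, counts scaled to a common library size after TMM normalisation, and are given in the order of the replicate numbers. TAF10KO replicate 2 and the library labelled TAF10HET replicate 1 were male by Xist, and the other 5 were female.

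Taf10 itself was counted in every library. The TAF10KO livers had 37.8 and 43.8 CPM, the WT livers 72.0 and 96.5, the library labelled TAF10HET replicate 1 had 78.1, and TAF10HET replicates 2 and 3 had 63.7 and 63.0. Both TAF10KO livers were below all others, as for 7.18% of all genes. The library labelled TAF10HET replicate 1 had 108% of the Taf10 level of the WT liver of its date code. Its label of 1 altered allele is therefore not seen in this level, which lay between those of the WT livers. TAF10HET replicates 2 and 3 had 66.0% and 65.4%. TAF10KO differed from WT by a log2 of -1.04 (SE 0.17, edgeR adjusted p = 0.0542). Of the annotated exon bases of Taf10, 45.9% are shared with Ilk on the other strand, for which the files held a mean of 0.243 CPM. Reads ambiguous between genes were left out and the strand setting is not given, so this value does not show the level of Ilk. Whether Ilk reads entered the Taf10 level cannot be told. Counts outside any deleted stretch and from liver cells without Cre enter the Taf10 level, so it does not measure the deletion.

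**Figure D1:**
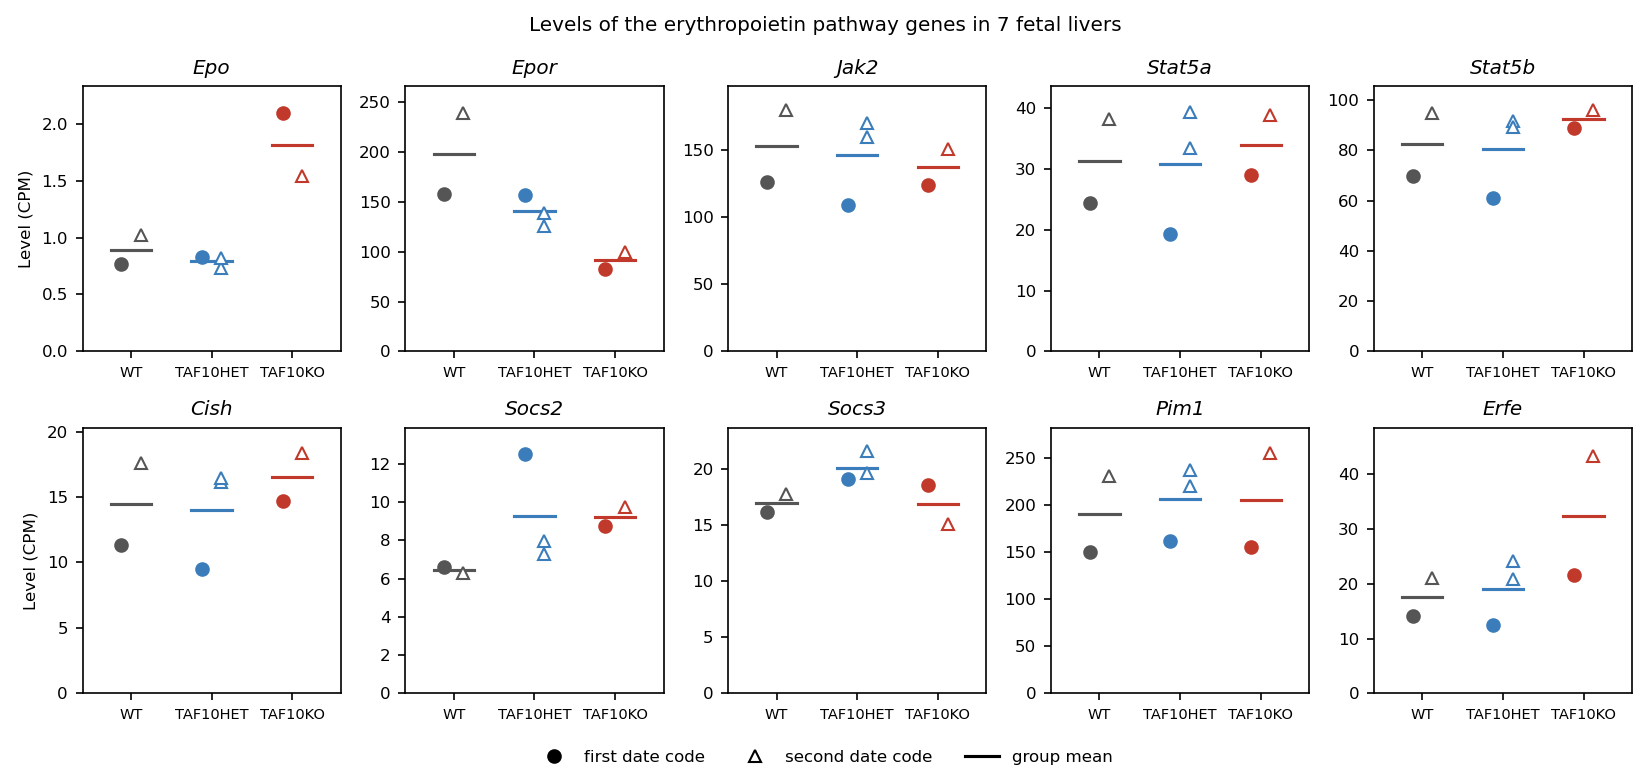
Levels of the 10 genes in CPM (vertical axes, each from 0) in WT, TAF10HET and TAF10KO livers, with filled circles for the first date code, open triangles for the second and lines for group means. Epor is lowest and Epo highest in the 2 TAF10KO livers, and Jak2, Stat5a, Stat5b, Cish and Pim1 separate by date code.

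Epor, which encodes the receptor (ENSMUSG00000006235, chromosome 9, minus strand, 21958897 to 21963506), had a level of 83.1 and 99.2 CPM in the TAF10KO livers. The library labelled TAF10HET replicate 1 had 156 CPM, TAF10HET replicates 2 and 3 had 139 and 125, and the WT livers had 158 and 239. The 3 groups did not overlap and lay in the order TAF10KO, TAF10HET, WT, although the library labelled TAF10HET replicate 1 and WT replicate 1 were nearly level. Of all genes, 14.5% were lower without overlap in TAF10KO than in WT, 9.77% in TAF10KO than in TAF10HET and 4.95% in TAF10HET than in WT. The share of genes with all 3 orders was not counted. TAF10KO had 46.3% of the WT level (95% interval 33.8% to 63.3%), a log2 difference of -1.11 (SE 0.19, edgeR adjusted p = 0.0618), which just misses the threshold. In bulk tissue, fewer cells of a type and less RNA per cell cannot be told apart, here and in all results that follow. DESeq2, which called 4.25% of genes, called this difference (-1.12, adjusted p = 1.71e-06). Without the library labelled TAF10HET replicate 1 edgeR did so too (-1.10, adjusted p = 0.000964), as for 5.65% of genes. Without WT replicate 2, which left 1 WT liver, the difference was -0.78.

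Set against the WT liver of the same date code, the EpoCre livers split by their level of Epor. On the second code TAF10HET replicates 2 and 3 had 58.3% and 52.6%, and TAF10KO replicate 2 had 41.6%. On the first, TAF10KO replicate 1 had 52.6% but the library labelled TAF10HET replicate 1 had 98.9%. That liver carries EpoCre by its title, as the 4 livers with 41.6% to 58.3% do, and it is also the one with Taf10 near the WT level. Over all livers TAF10HET had 70.5% of the WT level of Epor (95% interval 53.3% to 93.4%), a log2 difference of -0.50 (SE 0.17, edgeR adjusted p = 0.999). Without the library labelled TAF10HET replicate 1 that difference was -0.77 (adjusted p = 0.0665), and without WT replicate 2 it was -0.16.

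Between the groups that both carry EpoCre, TAF10KO had 65.6% of the Epor level of TAF10HET (95% interval 49.1% to 87.6%). The log2 difference was -0.61 (SE 0.18, edgeR adjusted p = 0.150). It was -0.91 on the first date code and -0.41 on the second, and -0.33 (adjusted p = 0.145) without the library labelled TAF10HET replicate 1. This gap between date codes passed a test of date code by genotype in edgeR (0.495, adjusted p = 0.0221), as did 15.4% of all genes, while in TAF10KO against WT it did not pass for any of the 10 members, and 1.15% of genes did. DESeq2, with 4.66% of genes called, gave a difference of TAF10KO from TAF10HET of -0.61 with an adjusted p of 0.0187.

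**Figure D2:**
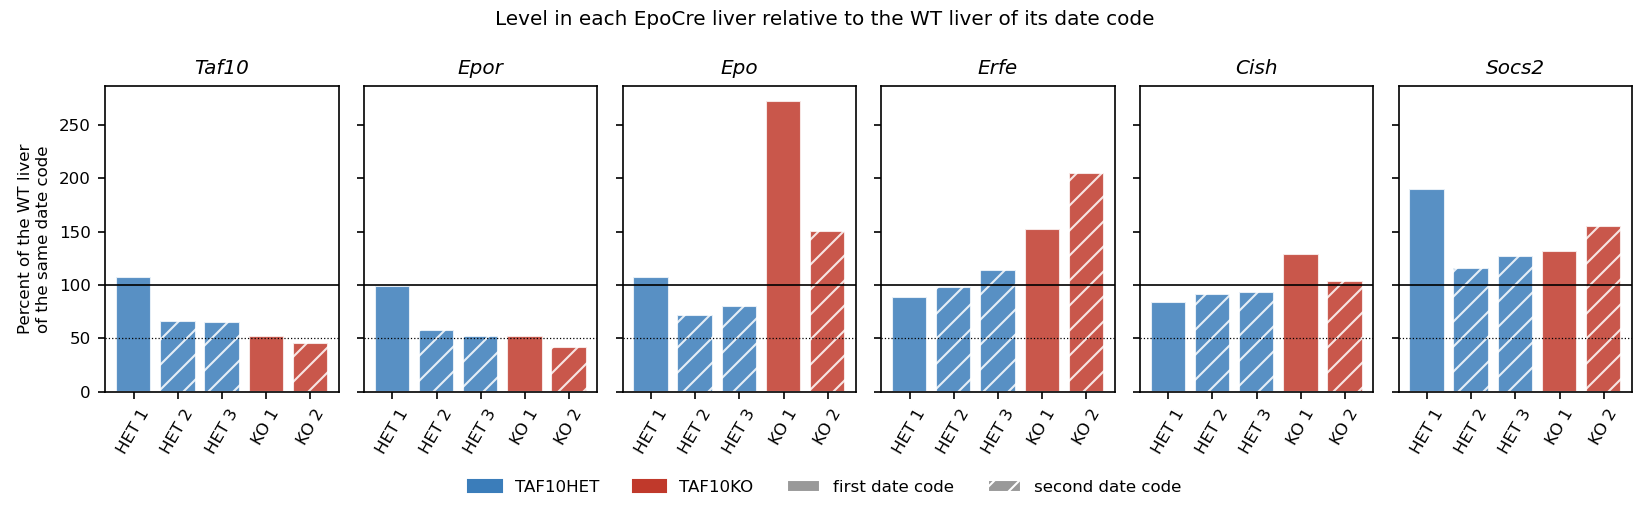
Level of Taf10 and 5 pathway genes in each EpoCre liver as a percent of the WT liver of its date code (bars from 0, solid for the first code and hatched for the second, 1 library per bar and no error bar). Solid and dotted lines mark 100% and 50%. The library labelled TAF10HET replicate 1 is at 108% for Taf10 and 98.9% for Epor, while the other 4 livers are at 45.5% to 66.0% and 41.6% to 58.3%.

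Epo, which encodes the ligand (ENSMUSG00000029711, chromosome 5, minus strand, 137483020 to 137533242), was rare. TAF10KO replicates 1 and 2 had 77 and 67 counts, TAF10HET had 16, 19 and 14, and WT had 21 and 22. In CPM these were 2.09 and 1.54 in TAF10KO, 0.828, 0.735 and 0.821 in TAF10HET, and 0.765 and 1.02 in WT. Both TAF10KO livers were above all 5 others, as for 7.48% of all genes. The exact 95% Poisson interval, which covers counting error only, was 1.19 to 1.95 CPM in TAF10KO replicate 2 and 0.640 to 1.55 CPM in WT replicate 2, so these overlap. TAF10KO had 203% of the WT level (95% interval 121% to 341%), a log2 difference of 1.02 (SE 0.32, edgeR adjusted p = 0.177), and the difference from TAF10HET was 1.17 (SE 0.30, adjusted p = 0.110). Without WT replicate 1 the difference from WT was 0.66, and without WT replicate 2 it was 1.37, fits with 1 WT liver left. A model with embryo sex as a further term, which called 17.2% of all genes against WT and 17.4% against TAF10HET, called both differences, at 1.13 (adjusted p = 0.0444) and 1.20 (adjusted p = 0.0184). TAF10HET and WT differed by -0.15 (95% interval -0.91 to 0.61). Of the exon bases of Epo, 12.2% are shared with Gnb2, which had a mean of 156 CPM and a TAF10KO difference from WT of 0.16 (adjusted p = 0.420).

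The hepatocyte markers, from the lineage known to make erythropoietin at this stage, were read beside Epo. None of the 12 passed the test between TAF10KO and WT, and 2 had a log2 difference above 0. Their median was -0.23. They summed to 13500 to 21800 CPM in TAF10KO, 13700 to 19100 in TAF10HET and 17800 to 21500 in WT. Afp, the most abundant, differed by -0.10. Of 10 genes that control Epo through oxygen, 2 rose in TAF10KO against WT: Egln3 (log2 2.00, edgeR adjusted p = 0.0102) and Egln1 (0.87, adjusted p = 0.0129), prolyl hydroxylases that mark HIF alpha subunits for degradation. Hif1a and Epas1, which encode those subunits, differed by -0.16 and 0.39 (adjusted p = 0.395 and 0.228). Of 10 genes known to be induced by hypoxia, 6 rose and none fell, where 0.481% of all genes rose. The median of the 10 was 1.20 against 0.028 over all genes tested. The 6 were Vegfa (1.27), Pgk1 (1.13), Ldha (0.61), Bnip3 (1.49), Ndufa4l2 (3.18) and Ankrd37 (2.03). The oxygen and hypoxia lists were chosen with earlier results of these data known, so these counts are a description only. The hypoxia list summed to 3450 to 4460 CPM in TAF10KO, 1960 to 2800 in TAF10HET and 2060 to 2670 in WT. Its part in the Epo level was not tested.

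Jak2, the kinase bound to the receptor (ENSMUSG00000024789, chromosome 19, plus strand, 29251828 to 29313080), had 124 and 151 CPM in TAF10KO, 109.5, 170.5 and 160 in TAF10HET, and 126 and 179.7 in WT. The genotypes overlapped, and within each the livers of the second date code were higher. TAF10KO differed from WT by a log2 of -0.14 (95% interval -0.37 to 0.10) and from TAF10HET by 0.01 (-0.21 to 0.22).

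Stat5a and Stat5b are near-identical neighbours on chromosome 11 (100859351 to 100885169, plus strand, and 100780731 to 100850724, minus strand), and reads from their shared stretches were left out or are uncertain. Stat5a was at 28.9 and 38.8 CPM in TAF10KO, 19.3, 39.4 and 33.5 in TAF10HET, and 24.4 and 38.3 in WT. Stat5b was at 88.9 and 96.0 CPM in TAF10KO, 61.0, 91.7 and 89.2 in TAF10HET, and 70.0 and 94.8 in WT. The genotypes overlapped for both, and the library labelled TAF10HET replicate 1 was lowest for both. The log2 differences of TAF10KO from WT were 0.13 for Stat5a (95% interval -0.19 to 0.46) and 0.19 for Stat5b (-0.08 to 0.45). Against TAF10HET they were 0.29 for each, with edgeR adjusted p = 0.314 and 0.234. With embryo sex as a further term, Stat5b was called against WT (0.29, adjusted p = 0.00766), as were 17.2% of all genes, and both were called against TAF10HET, as were 17.4%. The ratio of Stat5b to Stat5a counts lay between 2.33 and 3.15 in all 7 livers.

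None of the 3 feedback inhibitors passed the test between genotypes. Cish, which competes for STAT5 docking sites on the receptor (ENSMUSG00000032578, chromosome 9, plus strand, 107296026 to 107302784), was at 14.7 and 18.3 CPM in TAF10KO, 9.52, 16.2 and 16.4 in TAF10HET, and 11.4 and 17.6 in WT. TAF10KO exceeded the WT liver on both date codes, by log2 0.37 and 0.06, but the groups overlapped. The fitted difference was 0.22 against WT (95% interval -0.10 to 0.54, edgeR adjusted p = 0.436) and 0.36 against TAF10HET (0.07 to 0.66, adjusted p = 0.211). Without TAF10KO replicate 1 the difference from WT was 0.03. With embryo sex as a further term, which called 17.4% of all genes, the difference from TAF10HET was called (0.41, adjusted p = 0.0123). Of its exon bases, 11.5% are shared with genes on the other strand, Gm17040 and Gm17041, which held means of 0.262 and 0 CPM.

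Socs2, an inhibitor of cytokine and growth hormone signalling (ENSMUSG00000020027, chromosome 10, minus strand, 95385362 to 95417180), was at 8.72 and 9.74 CPM in TAF10KO and 6.60 and 6.26 in WT. The library labelled TAF10HET replicate 1 had 12.52 CPM, and TAF10HET replicates 2 and 3 had 7.27 and 7.97. Socs2 was higher in both TAF10KO livers than in both WT livers, as were 15.2% of all genes. It was also higher in all 3 TAF10HET livers than in WT, as were 4.33%. The share of genes with both orders was not counted. The highest level was in the library labelled TAF10HET replicate 1, whose Epor and Taf10 were near the WT level of its date code. The log2 difference from WT was 0.54 in TAF10KO (95% interval 0.01 to 1.07, edgeR adjusted p = 0.277) and 0.55 in TAF10HET (0.05 to 1.05, adjusted p = 0.999). The difference of TAF10KO from WT was 0.18 without TAF10KO replicate 2 and 0.84 without TAF10KO replicate 1, fits with 1 TAF10KO liver left. Without the library labelled TAF10HET replicate 1, that of TAF10HET from WT was 0.21 and that of TAF10KO from TAF10HET moved from -0.01 to 0.31.

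Socs3, which inhibits JAK2 and the receptor directly (ENSMUSG00000053113, chromosome 11, minus strand, 117966079 to 117970047), was at 18.6 and 15.04 CPM in TAF10KO, 19.1, 21.5 and 19.6 in TAF10HET, and 16.1 and 17.8 in WT. TAF10HET lay above WT, as for 4.33% of all genes, and above TAF10KO, as for 9.77%. The share of genes with both of these orders was not counted. TAF10KO straddled WT, higher on the first date code (log2 0.20) and lower on the second (-0.24). The fitted differences were -0.01 for TAF10KO from WT, 0.25 for TAF10HET from WT and -0.26 for TAF10KO from TAF10HET, with edgeR adjusted p of 0.973, 0.999 and 0.357.

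Pim1, a survival kinase induced by STAT5 (ENSMUSG00000024014, chromosome 17, plus strand, 29490753 to 29496112), was at 156 and 256 CPM in TAF10KO, 162, 237 and 221 in TAF10HET, and 150 and 231 in WT. The genotypes overlapped and the second date code was higher in each. The intervals of the log2 difference were the narrowest of the 10 genes: -0.11 to 0.31 for TAF10KO from WT, around 0.10. An antisense gene, Gm26885, shares 14.5% of the exon bases of Pim1 and held a mean of 0.0682 CPM.

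Erfe, which encodes erythroferrone (ENSMUSG00000047443, chromosome 1, plus strand, 91366430 to 91374217), was the 1 member of 10 that rose in TAF10KO, against WT (0.608% of all genes passed) and against TAF10HET (1.61%). The TAF10KO livers had 21.6 and 43.3 CPM of Erfe, the TAF10HET livers 12.47, 20.8 and 24.1, and the WT livers 14.1 and 21.2. Within each date code the TAF10KO liver was highest, at 153% and 205% of the WT liver, whereas across codes TAF10KO replicate 1 lay below TAF10HET replicate 3. TAF10KO had 178% of the WT level (95% interval 144% to 219%), a log2 difference of 0.83 (SE 0.13, edgeR adjusted p = 0.04996). Against TAF10HET it had 183% (151% to 222%), a log2 difference of 0.87 (SE 0.12, adjusted p = 0.0218), and TAF10HET differed from WT by -0.04 (95% interval -0.33 to 0.25).

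The call of Erfe against WT was lost without any of 4 livers. There the difference was 0.98 without WT replicate 1 and 0.66 without WT replicate 2, fits with 1 WT liver left. It was 0.83 without TAF10HET replicate 2 and 0.83 without TAF10HET replicate 3 (edgeR adjusted p = 0.0969 and 0.146). In the fits without these TAF10HET livers, 0.198% and 0.0821% of all genes passed, beside 0.608% with all livers. Without the date code in the fit the difference was 0.88 and not called, where 0% of all genes were. DESeq2 with the date code, which called 4.25% of genes, called it at 0.82 (adjusted p = 0.000301). The call against TAF10HET was lost without the same 4 livers, at 0.88 without WT replicate 1 and 0.89 without WT replicate 2. The difference was 0.82 without TAF10HET replicate 2 and 0.93 without TAF10HET replicate 3 (edgeR adjusted p = 0.083 and 0.104), where 0.269% and 0.101% of all genes passed. This call was also lost with only the groups compared (0.89, adjusted p = 0.0779), where 0.166% of genes passed. Without the date code it was lost too (0.76, adjusted p = 0.955), where 0% passed. Of the exon bases of Erfe, 12.7% are shared with Ilkap on the other strand, which had a mean of 84.3 CPM and differed by -0.04 between TAF10KO and WT (adjusted p = 0.816).

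**Figure D3:**
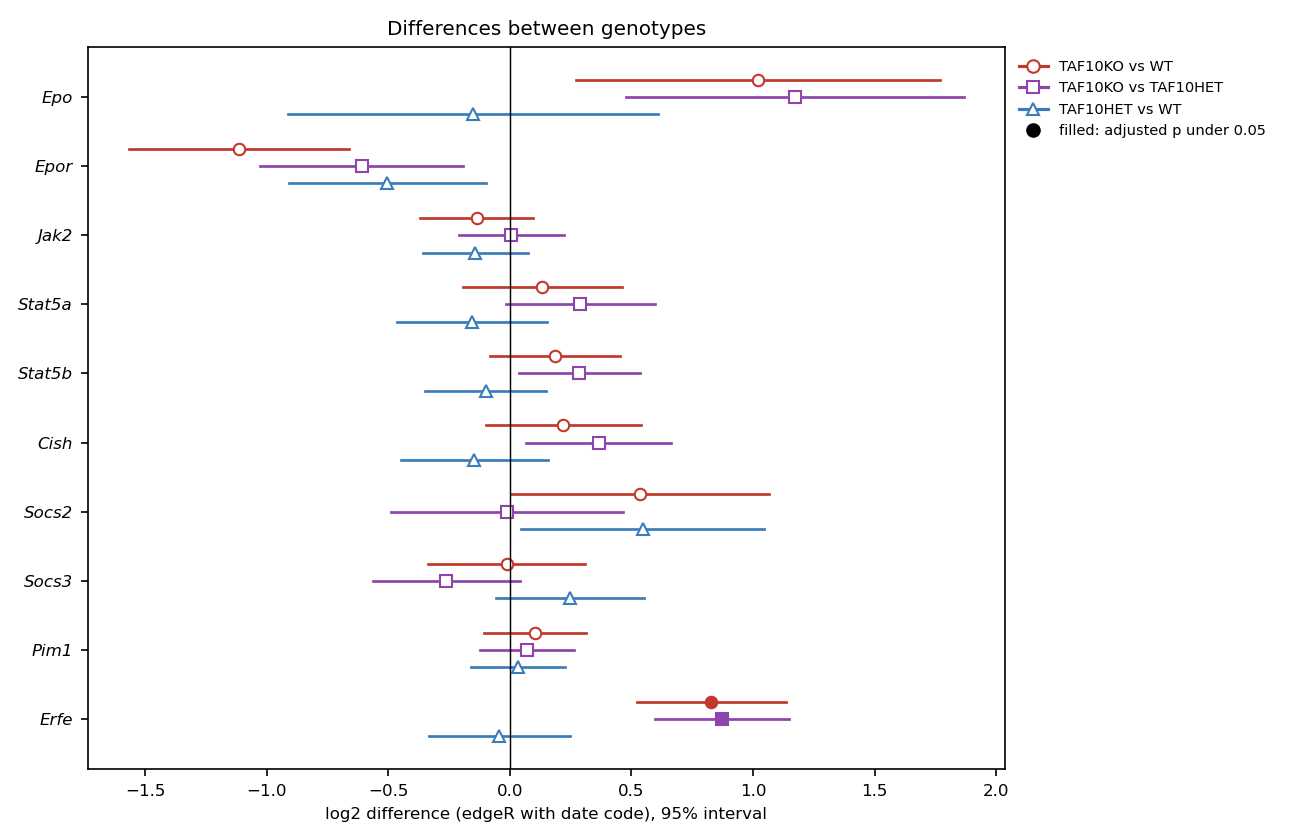
Log2 differences (horizontal axis) of the 10 genes in 3 comparisons from the edgeR fit with the date code, with 95% intervals as bars and filled symbols for an adjusted p under 0.05. Erfe is filled in both TAF10KO comparisons, at 0.83 and 0.87, and Epor is at -1.11, -0.61 and -0.50.

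By count, 1 of the 10 members passed the test in TAF10KO against WT, where 0.608% of all genes did (0.481% higher), and 1 of 10 against TAF10HET, where 1.61% did (1.15% higher). In TAF10HET against WT none passed, where 0.00633% of all genes did. At an unadjusted p under 0.05, edgeR gave Epor and Socs2 there, among 530 genes (3.35%), and DESeq2 called 13 genes (0.0473%) and no member. Without overlap between the livers, Epo, Erfe and Socs2 were higher in TAF10KO than in WT (15.2% of all genes were) and Epor was lower (14.5%). Epo was above all other livers in TAF10KO, as were 7.48% of genes, and Epor below all others, as were 7.18%. In TAF10HET, Socs2 and Socs3 were above WT (4.33% of all genes were) and Epor below it (4.95%). Between TAF10KO and TAF10HET, Epo was higher (10.3%) and Epor and Socs3 were lower (9.77%). On both date codes, TAF10KO was above the WT liver for 7 members (34.3% of all genes) and below it for 2 (30.4%), and Socs3 changed sides. These shares show how often such an order occurred among the genes tested. The 3 comparisons share livers, and the median log2 difference of the members was 0.16, -0.12 and 0.18 in TAF10KO against WT, TAF10HET against WT and TAF10KO against TAF10HET, beside 0.028, 0.009 and 0.003 over all genes.

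More members passed the test between date codes than between genotypes. From the first to the second code, 6 of 10 members rose, none fell, and 41.4% of all genes passed, 18.7% up and 22.7% down. Erfe rose by log2 0.82 (SE 0.10, edgeR adjusted p = 0.00115), Stat5a by 0.68 (SE 0.11), Pim1 by 0.60 (SE 0.07), Cish by 0.58 (SE 0.11), Jak2 by 0.47 (SE 0.08) and Stat5b by 0.39 (SE 0.09), with adjusted p from 0.000826 to 0.0131. Epor (0.15), Epo (-0.09), Socs2 (-0.26) and Socs3 (-0.01) did not pass. Jak2, Stat5a, Stat5b, Cish and Pim1 were higher in all 4 livers of the second code than in all 3 of the first, as were 18.8% of all genes. The call of Stat5b was lost when either WT liver was left out, at 0.34 without WT replicate 1 and 0.37 without WT replicate 2. Without the library labelled TAF10HET replicate 1, Epor was called as well (0.42, adjusted p = 0.0111), as were 33% of all genes.

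Markers of the cells in the suspension moved with the date code too. All 15 erythroblast markers rose (median 0.60, from 0.36 to 0.87), as did 5 of 6 early erythroid and progenitor markers, while 10 of 12 hepatocyte markers (median -0.46), all 9 endothelial markers (-0.96), all 8 mesenchymal markers (-2.60) and 7 of 10 macrophage markers fell. The 6 members that rose, at 0.39 to 0.82, lay within the range of the erythroblast markers. Epor lay below that range. The part of these markers in the members' differences was not tested.

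**Figure D4:**
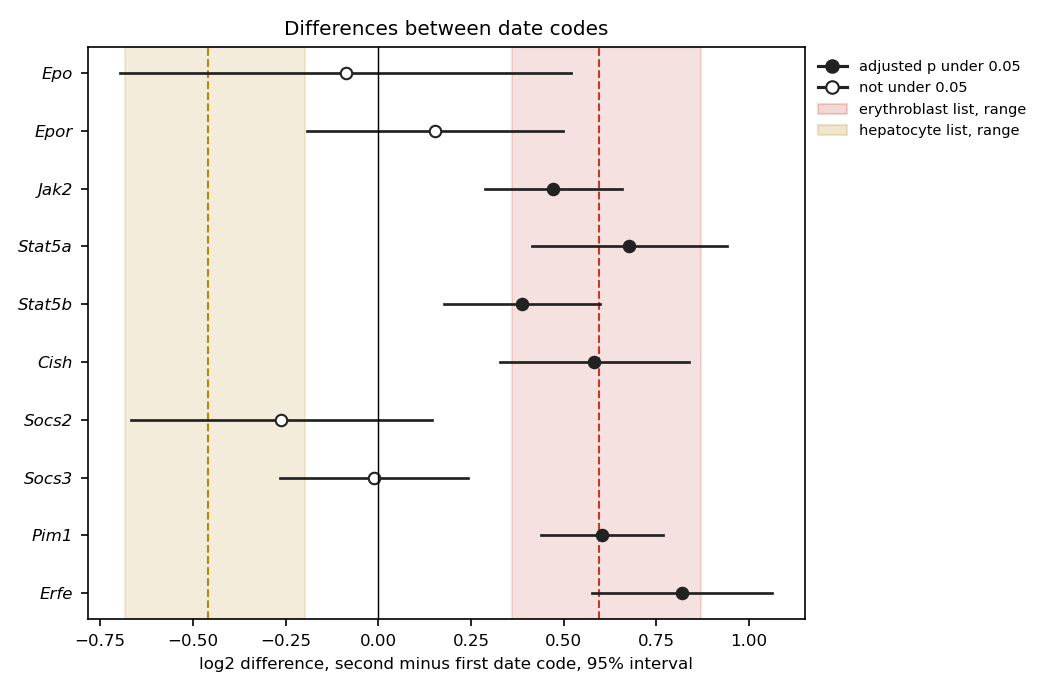
Log2 difference of the 10 genes between the second and the first date code (horizontal axis, with 95% intervals), with shaded ranges and dashed medians of the erythroblast and hepatocyte markers. The 6 filled genes lie between 0.39 and 0.82, inside the erythroblast range of 0.36 to 0.87, and Epor is at 0.15.

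Between genotypes few of these markers passed the test. In TAF10KO against WT none of the 15 erythroblast markers passed the test, and 2 had a log2 difference above 0. Their median was -0.21, at -0.05 on the first date code and -0.39 on the second. They summed to 10800 to 12900 CPM in TAF10KO, 10200 to 19400 in TAF10HET and 11600 to 17000 in WT. Alas2, the haem synthesis enzyme of red cells, differed by -0.48 (edgeR adjusted p = 0.123), less than Epor. Of 9 endothelial markers, 2 rose, Flt1 by 1.18 and Pecam1 by 0.64 (edgeR adjusted p = 0.0244 and 0.0438), and the list summed to 233 to 496 CPM in TAF10KO, 183 to 340 in TAF10HET and 180 to 369 in WT. None of the early erythroid, macrophage, megakaryocyte, neutrophil or mesenchymal markers passed in that comparison, with medians of 0.14, -0.49, 0.23, 0.69 and 0.57. In the same order, 5 of 6, 0 of 10, 7 of 8, 9 of 9 and 8 of 8 had differences above 0. Against TAF10HET, Flt1 (1.18), Kdr (0.63) and Pecam1 (0.63) of the endothelial markers and Mpo (0.80) and Prtn3 (0.74) of the 9 neutrophil markers rose, C1qa of the 10 macrophage markers fell (-0.76), and no marker of the other 5 lists passed (edgeR adjusted p = 0.0113 to 0.0423 for the 6 that did). Every listed marker passed the filter on low counts. Their part in the levels of Epor and Erfe was not tested.

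The genes downstream were also read as ratios of their counts to those of Epor. Cish to Epor was 0.177 and 0.185 in TAF10KO, 0.0609 in the library labelled TAF10HET replicate 1, 0.116 and 0.131 in TAF10HET replicates 2 and 3, and 0.0719 and 0.0737 in WT. For Erfe to Epor the values were 0.260 and 0.437 in TAF10KO, 0.0797, 0.150 and 0.192 over the TAF10HET livers, and 0.0891 and 0.0886 in WT. These ratios were highest in the 2 TAF10KO livers, as were Jak2 to Epor (1.49 and 1.52, against 0.700 to 1.28 in the other 5), Pim1 to Epor (1.88 and 2.58, against 0.947 to 1.76) and Socs2 to Epor (0.105 and 0.0981, against 0.0262 to 0.0801). Socs3 to Epor differed: it was 0.223 and 0.152 in TAF10KO, 0.122, 0.155 and 0.156 in TAF10HET, and 0.102 and 0.0745 in WT, so TAF10KO replicate 2 lay within the range of TAF10HET. The library labelled TAF10HET replicate 1 was the lowest of all for Cish, Erfe and Jak2, but above both WT livers for Pim1 (1.04 against 0.947 and 0.968), Socs2 and Socs3. The ratios carry the Epor level in the denominator, so they repeat its differences and were not tested.

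Per kilobase of exon, Epor was the most abundant member, with a mean of 71.8 CPM per kilobase (41.8 to 120 over the 7 livers). Pim1 followed at 60 (44.6 to 76.1), Jak2 at 29.0 (21.8 to 35.7) and Stat5b at 15.3 (11 to 17.3). Erfe was at 8 (4.43 to 15.4), Socs3 at 6.31, Stat5a at 4.46, Cish at 2.32, Epo at 1.3 and Socs2 at 0.885. The length used is that of all annotated exons joined, and the order depends on it. It was 6419 bases for Cish, of a gene span of 6759, 9531 for Socs2 and 855 for Epo. Without division by length, Socs2 was above Epo in every liver (lowest 6.26 CPM, against at most 2.09). The ranges of Epor and Pim1 overlap, as do those of Erfe and Socs3, whereas Jak2 was above Stat5b in every liver. In TAF10KO the mean of Epor was 45.8 and that of Pim1 61.3 CPM per kilobase, so their order was the reverse of that in WT (99.8 and 56.6). TAF10HET replicates 2 and 3 had the TAF10KO order by a small margin (Epor 70.0 and 63.1, Pim1 70.6 and 65.7). The library labelled TAF10HET replicate 1 had the WT order (78.6 and 48.2).

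Other genes of the pathway were counted from lists chosen by role, with earlier results of these data known. Of 22 signalling adaptors and kinases, 1 rose in TAF10KO against WT: Gab2, a scaffold that links the receptor to PI3 kinase and SHP2, which went from 16.1 ± 1.19 CPM in WT to 31.5 ± 10.7 in TAF10KO (SD, n = 2 each), a log2 difference of 0.92 (edgeR adjusted p = 0.0458). None fell. Of 15 other genes responsive to erythropoietin or STAT5, none rose and Tfrc, the transferrin receptor that takes up iron, fell, with a log2 difference of -0.84 (adjusted p = 0.0438), from 2460 ± 245 CPM in WT to 1380 ± 139 in TAF10KO (SD, n = 2 each). Against TAF10HET, Gab2 (0.82) and the kinase Tec (0.82) rose and the PI3 kinase subunit Pik3r1 (-0.87) fell among the adaptors and kinases, and among the responsive genes Spry1 (0.83), an inhibitor of MAP kinase signalling, rose and Tfrc (-0.71) fell. None of 13 genes listed as further negative regulators, 8 other JAK and STAT genes or 12 related cytokine receptors passed in either TAF10KO comparison. Their medians against WT were 0.09, 0.15 and 0.30. Ptpn11, the most abundant gene of the first of these lists, which encodes the phosphatase SHP2, differed by 0.09. Jak1 differed by 0.13 and the stem cell factor receptor Kit by 0.16. In TAF10HET against WT no gene of these 5 lists passed.

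How the members varied together was described over the 7 livers, after subtracting the mean of the date code from each log2 CPM. Cish followed Stat5b most closely (r = 0.99), and Stat5a followed Stat5b (0.93). Erfe ran with Epo (0.87) and against Epor (-0.81), while Epor ran against Epo (-0.65). Jak2 and Socs2 were opposed (-0.93). The livers differ in depth and fall in genotype groups, so each value describes 7 points of 3 groups. Among 8861 genes with a mean of at least 10 CPM, those most like Epor included B2m (0.989), Hmgn2 (0.989), Bag4 (0.988) and Apex1 (0.985), whose differences of TAF10KO from WT were -0.15, -0.37, -0.21 and -0.42. The genes most like Erfe were Ero1l (0.991), Shprh (0.99), Slc2a3 (0.99), Auh (0.989) and Clcn2 (0.988), with differences of 1.01, 0.33, 0.85, 0.29 and 0.69.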

How the data were processed

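The authors deposited raw read counts for each Ensembl gene, as whole numbers without normalisation. TopHat2 2.0.8, DESeq2 and build mm10 were used, per the submitters' processing notes. Not given in the sources used here are the counting program, annotation release and strand setting. Lines naming no gene held 6.81% to 10.1% of reads in no gene, 3.98% to 5.94% ambiguous between genes and 14.1% to 22.2% aligned to several places, and these were left out. GENCODE M21 gave symbols for 37693 of 39017 identifiers.

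The members, lists and the date code as a term were chosen with earlier results of these data known. Tests used edgeR 4.0.16 under R 4.3.3 (filterByExpr by group, TMM, robust quasi-likelihood F test, two-sided) with terms for date code and genotype. This blocks livers by date code: deviations from group means correlated at 0.40 to 0.74 across genes in 8 same-code pairs. In groups of 2 the deviations mirror each other, so pairs of different codes give no separate value. Within each genotype group no library repeated another by chi-square of counts, and pairs across groups were not compared. Libraries with Xist under 10 CPM were taken as male. Alternatives included DESeq2 1.42.0. The test was checked on simulated data. Log2 CPM used a prior count of 2.

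Named genes are all members and Taf10, and from each companion list the up to 3 called genes of smallest adjusted p in TAF10KO against WT, or else the most abundant gene. From marker lists they are the most abundant and the gene of smallest adjusted p, and for likeness the 5 genes with the highest correlation, of which 1 is not reported here. Hif1a, Epas1, Vegfa, Ldha, Ankrd37, Pecam1, Kdr, Mpo, Prtn3, C1qa, Tec, Pik3r1 and Spry1 were named after their values were seen.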

Additional observations from a re-analysis of the deposited data

Results flagged for a closer look

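Of the 10 members and Taf10, 4 genes had a difference of TAF10KO from TAF10HET that itself differed between date codes in an edgeR fit with a term for date code by genotype, as did 15.4% of all genes. On the second code minus the first, the log2 difference of Epor was larger by 0.495 (adjusted p = 0.0221), being -0.91 on the first and -0.41 on the second. That of Taf10 was larger by 0.514 (adjusted p = 0.0102), being -1.04 and -0.53. Socs2 gave 0.882 (adjusted p = 0.0336), from -0.52 to 0.35, and Stat5b gave -0.458 (adjusted p = 0.0188), from 0.54 to 0.09. In TAF10KO against WT none of the 10 members differed between date codes by this test, where 1.15% of all genes did. The fit has 1 residual degree of freedom between livers. The first code of TAF10HET is the library labelled TAF10HET replicate 1 alone, whose Taf10 alleles and sex differ from those of TAF10HET replicates 2 and 3, so these cannot be told apart from the date code.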

How the results depend on the processing

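The number of members called in TAF10KO against WT was 1 with the date code in the fit, where 0.608% of all genes passed. With no replicate block (genotype only) it was 0, where 0% of all genes passed. Upper-quartile factors (0.797% of all genes), median-of-ratios factors (0.766%), non-robust dispersions (0.335%) and globin genes out of library totals (0.55%) also gave 0. The number was 2 with DESeq2 (4.25%), with only the groups compared (3.52%) and with the newer quasi-likelihood method (0.823%), an alternative chosen after seeing the data. It was 3 with no filter and with a sex term, which called 5.09% and 17.2% of all genes. Against TAF10HET it was 1 (1.61% of all genes), and 0 with no replicate block (0%) or with only the groups compared (0.166%), with Erfe lost. It was 2 with DESeq2 (4.66% of all genes), 4 with no filter (5.45%) and 5 with the sex term (17.4%). In TAF10HET against WT it was 0, and 1 with no filter (Epor, with 1.05% of all genes). Leaving out 1 TAF10HET library gave 0 to 2 in TAF10KO against WT (0.0821% to 5.65% of all genes) and 0 or 1 against TAF10HET (0.101% to 3.1%). It gave 0 in TAF10HET against WT (0% to 0.051%) and 6 or 7 for the date code (29% to 33%). Other settings gave 5 or 6 for the date code (26.6% to 56.5%). Leaving out a WT or TAF10KO library leaves 1 in its group, so those counts are not given. Of 736 values of single members, 660 kept direction and side of the threshold, 21 gained and 18 lost a call, and 37 changed sign, none of them called. The cause was not tested.

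Signs changed as follows. With no replicate block, Erfe in TAF10HET against WT was 0.119, and in TAF10KO against TAF10HET Jak2 was -0.094 and Pim1 -0.00558. In that comparison Jak2 was also -9.76e-06 with DESeq2, -0.0016 with a filter of 5 CPM and -0.00385 with median-of-ratios factors, and Socs2 was 0.109 with the newer method and 0.0296 with no filter. Socs3 in TAF10KO against WT was 0.0839 with the sex term, 0.0421 with the newer method and 0.0269 with no filter, and 0.00262 between date codes with DESeq2. Pim1 in TAF10HET against WT was -0.00378 with the sex term and -0.0285 with the newer method. Leaving out 1 library gave, in TAF10KO against WT, Stat5a -0.0494 to 0.282, Stat5b -0.0142 to 0.348, Socs3 -0.227 to 0.16 and Pim1 -0.0124 to 0.188. In TAF10HET against WT it gave Epo -0.459 to 0.232, Stat5b -0.14 to 0.0142, Pim1 -0.0335 to 0.0761 and Erfe -0.229 to 0.105. In TAF10KO against TAF10HET it gave Jak2 -0.117 to 0.124, Socs2 -0.392 to 0.308 and Pim1 -0.0525 to 0.147, and between date codes Epo -0.297 to 0.106, Epor -0.0543 to 0.421, Socs2 -0.498 to 0.0517 and Socs3 -0.0968 to 0.0881. Epo, at 14 to 77 counts per library, is the member that depth limits most.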
